A study of Mus musculus with 11 samples.

Results

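The uroplakin and urothelial genes described here are 10 of the 18193 genes measured on Affymetrix mouse arrays hybridised with RNA of embryonic day 17 (E17) kidneys. They were chosen by name: the uroplakin genes Upk1a, Upk1b, Upk2, Upk3a and Upk3b, the basal cell genes Krt5, Krt15 and Trp63, and Psca and Shh. All 10 had at least 1 probe set that names the gene alone, and 18 such probe sets were found in all. The labels give the genotype as Robo2 homozygous or wild-type, and do not give the allele, the strain, the sex or the number of animals behind an array. The groups were 3 homozygous arrays of the title series E17R2 (E17R2MU2, E17R2MU8 and E17R2MU9) with 3 wild-type arrays of that series (E17R2WT1, E17R2WT3 and E17R2WT7), 3 homozygous arrays titled R2NB-3, R2NB-4 and R2NB-5, and 1 homozygous (R2E17-6) with 1 wild-type array (R2E17-3) of the title series R2E17. The sources used here do not explain the letters NB. Some free-text labels name human brain tissue, against the organism and tissue labels, which were followed.

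Urothelium is the epithelium that lines the renal pelvis, ureter and bladder. Its superficial umbrella cells are covered by plaques of uroplakin proteins: the tetraspanins uroplakin 1a and 1b pair with the single-pass proteins uroplakin 2 and 3, and these pairs pack into a barrier against urine. Basal cells beneath them carry keratin 5 and the transcription factor p63, the product of Trp63. In the embryo the ureter epithelium secretes Sonic hedgehog, the product of Shh, which acts on the surrounding mesenchyme that forms ureteral smooth muscle. Robo2 encodes a receptor for Slit ligands that limits where the ureteric bud grows out.

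A level here is log2 of the RMA intensity minus the median log2 of all probe sets of the same array that are not controls, so 1 unit is a 2-fold step. The E17R2 arrays had median intensities of 23.4 to 24.5, and the R2E17 and R2NB arrays 46.8 to 53.2, so levels were compared only within each of these sets. All 7 measured kidney defining genes lay above the 95th percentile of 38 olfactory receptor genes, used as a mark of dim signal, on all 11 arrays. The 3' minus 5' log2 difference of the control probe sets, a sign of RNA quality, was 0.70 for Gapdh and 1.12 for Actb on the wild-type R2E17 array, and at most 0.22 and 0.75 on any other. Robo2 itself read -2.55, -2.21 and -2.28 on the homozygous E17R2 arrays against -1.46, -0.87 and -1.46 on the wild-type E17R2 arrays, and -2.26 on the homozygous against -1.77 on the wild-type R2E17 array. It read -2.27, -1.85 and -1.75 on the R2NB arrays, and where this dim probe set lies with respect to the altered part of the gene is not stated. In whole kidneys, fewer urothelial cells and less RNA in each cell cannot be told apart.

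Promoters are shown for the uroplakin that is the partner of Upk1b in plaques (Upk3a), for the basal keratin (Krt5) and for the uroplakin whose values set it apart from the others below (Upk3b). RefSeq promoter sequences (GRCm38.p6) were matched for 4 of the 10 genes, these 3 and Upk1a. Each run holds the 250 bases before the gene start, 5′ to 3′ in the direction of transcription. Upk3a lies at chr15:85016891-85017140 on the plus strand, Krt5 at chr15:101712906-101713155 on the minus strand, and Upk3b at chr5:136038246-136038495 on the plus strand. Capitals mark every match on either strand to 4 motifs. The GATA motif was searched as AGATAA, and the TATA box, where transcription machinery can bind, as TATAAA. The GC box, which factors of the Sp family can bind, was searched as GGGCGG, and the p53 family half-site, a 10-base motif that p63 and its relatives can recognise, by its usual degenerate form.
Upk3a: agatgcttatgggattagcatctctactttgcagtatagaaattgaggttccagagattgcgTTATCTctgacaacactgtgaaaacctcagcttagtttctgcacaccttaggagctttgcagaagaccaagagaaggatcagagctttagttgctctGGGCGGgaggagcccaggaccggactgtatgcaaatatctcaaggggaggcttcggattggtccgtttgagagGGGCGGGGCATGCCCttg
Krt5: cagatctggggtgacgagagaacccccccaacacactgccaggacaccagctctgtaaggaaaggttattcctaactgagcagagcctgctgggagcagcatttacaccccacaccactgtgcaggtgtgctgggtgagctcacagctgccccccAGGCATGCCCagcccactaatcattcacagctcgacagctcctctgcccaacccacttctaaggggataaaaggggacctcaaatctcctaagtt
Upk3b: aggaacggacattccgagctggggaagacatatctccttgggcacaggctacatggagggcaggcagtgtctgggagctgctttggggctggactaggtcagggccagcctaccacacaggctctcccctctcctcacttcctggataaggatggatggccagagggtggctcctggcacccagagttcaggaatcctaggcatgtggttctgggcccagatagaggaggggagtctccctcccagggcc
The Upk3a run holds 1 GATA match, read on the opposite strand as TTATCT at 188 to 183 bases before the start. It also holds 2 GC boxes, at 91 to 86 and 18 to 13 bases before the start. A half-site, GGGCATGCCC, lies at 13 to 4 bases before the start and shares 1 base with the second GC box. The Krt5 run holds the half-site AGGCATGCCC at 95 to 86 bases before the start. Neither the Upk3b run nor that of Upk1a holds any of the 4 motifs, which says only that these letters are not in this window. Of 32851 promoter windows of this length, 9.99% held the GATA motif, 12.4% the TATA box, 32.7% the GC box and 7.13% the half-site.

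The first comparison set 3 homozygous against 3 wild-type E17R2 arrays. None of the 10 genes passed limma's test at a Benjamini-Hochberg threshold of 0.05. Over all 18193 genes 0 passed (0%) and 984 (5.41%) had an unadjusted p under 0.05, among them 1 of the 10 (Upk3b). A single array shaped the homozygous values. E17R2MU9 read above each of the other 5 E17R2 arrays for 10 of the 10 genes, where 17.8% of all genes did so. It stood more than 1 log2 unit above the mean of the other 5 for 7 of the 10 (Upk1b, Upk3a, Krt5, Krt15, Trp63, Psca and Shh), against 2.29% of all genes.

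**Figure D1:**
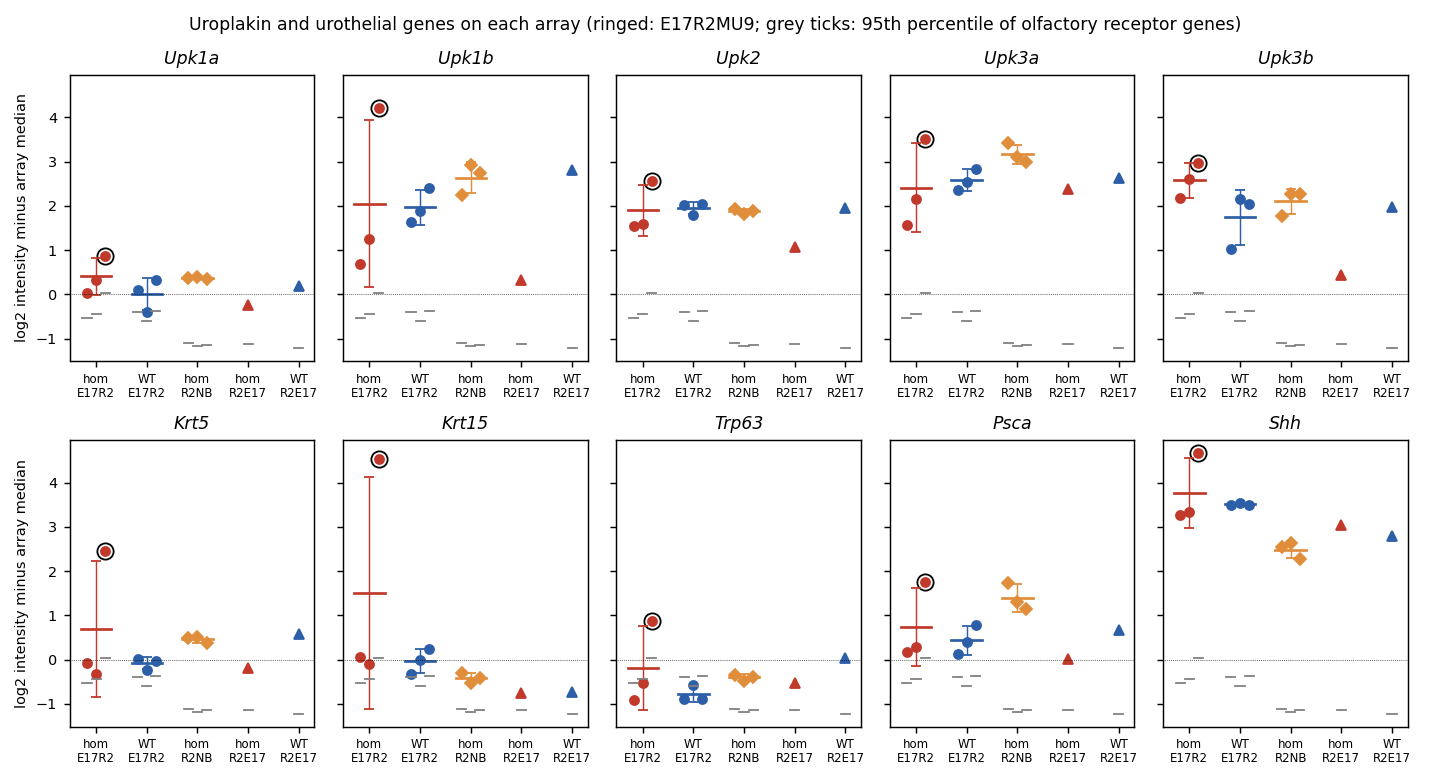
Each panel plots the level of 1 gene (log2 intensity minus the array median, y axis) on every array of the 5 groups, with a bar at the mean and whiskers of 1 SD for groups of 3 arrays. The ringed point is E17R2MU9, which is the highest E17R2 value in all 10 panels, and the grey ticks are each array's 95th percentile of olfactory receptor genes. Levels are comparable between the 2 E17R2 groups on the left and among the 3 other groups on the right.

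Among the superficial uroplakins, Upk1b, which encodes the tetraspanin uroplakin 1b, varied most between arrays. It read 0.68, 1.26 and 4.20 on the homozygous E17R2 arrays and 1.63, 1.88 and 2.40 on the wild-type E17R2 arrays. The wild-type values thus lay between 2 low homozygous arrays and 1 very high one. The log2 difference was 0.08 ± 0.84 (SE; limma adjusted p = 0.992). Without E17R2MU9 it was -0.998 ± 0.27, at an unadjusted p of 0.0103 and an adjusted p of 0.845. In E17R2MU9 the gene was 6.18-fold above the mean of the other 5 arrays, and its rank among the genes of its array was at percentile 86.1, against 39.4 to 59.6 on the other 5.

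All 4 Upk1b probe sets put E17R2MU9 highest, at 2.19 to 4.20. Without that array they gave homozygous minus wild-type differences of -0.998, -0.10, -1.15 and -0.64. The values of -0.10 and -1.15 came from probe sets whose suffix marks possible cross-hybridisation. Upk1b lies on chromosome 16, which also carries Robo2 and Trp63.

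Upk2 and Upk3a, which encode the single-pass uroplakins 2 and 3a, had the same layout. Upk2 read 1.55, 1.58 and 2.57 on the homozygous and 2.02, 1.79 and 2.04 on the wild-type E17R2 arrays. Upk3a read 1.56, 2.16 and 3.51 on the homozygous and 2.35, 2.55 and 2.83 on the wild-type E17R2 arrays. In both genes E17R2MU2 and E17R2MU8 lay below all 3 wild-type arrays and E17R2MU9 above them. The differences over all 6 arrays were -0.05 ± 0.27 for Upk2 and -0.17 ± 0.46 for Upk3a (SE; limma adjusted p = 0.979 and 0.963). Without E17R2MU9 they were -0.39 ± 0.11 for Upk2 (unadjusted p = 0.0121, limma adjusted p = 0.845) and -0.72 ± 0.22 for Upk3a (unadjusted p = 0.0169, limma adjusted p = 0.869).

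Upk1a, which encodes the tetraspanin uroplakin 1a, read 0.04, 0.32 and 0.86 on the homozygous and 0.11, -0.39 and 0.32 on the wild-type E17R2 arrays. These groups overlapped, and the difference was 0.39 ± 0.25 (SE; limma adjusted p = 0.868), or 0.17 ± 0.22 without E17R2MU9. Its signal was modest, at percentiles 29.4 to 41.3 of each array's genes.

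Upk3b stood apart from the other uroplakins. It encodes uroplakin 3b, a relative of uroplakin 3a that is also made by mesothelium, the cell sheet that covers organs. Its main probe set read 2.17, 2.60 and 2.96 on the homozygous and 1.02, 2.16 and 2.03 on the wild-type E17R2 arrays. The groups did not overlap, although E17R2MU2 at 2.17 and E17R2WT3 at 2.16 nearly touched; Upk3b was the 1 gene of the 10 whose homozygous values all lay above the wild-type values, which held for 4.85% of all genes. None of the 10 had all homozygous values below the wild-type values, which held for 7.14%. For Upk3b the difference came to 0.84 ± 0.33 (SE; unadjusted p = 0.0388, limma adjusted p = 0.867). An exact permutation test of the 3 against 3 values gave p = 0.10 (2-sided), the smallest that this design allows. Without E17R2MU9 the difference was 0.65 ± 0.36 (limma adjusted p = 0.954), and without E17R2WT1, the lowest array, it was 0.48. A second Upk3b probe set read 1.49, 1.93 and 2.11 on the homozygous and 0.26, 1.41 and 1.26 on the wild-type E17R2 arrays.

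Of the mesothelium genes, Lrrn4 and Bnc1 are set beside Upk3b; Lrrn4 was picked after its values had been seen. Lrrn4, which encodes a leucine-rich repeat membrane protein, read 0.41, 0.94 and 1.37 on the homozygous and -0.75, 0.83 and 0.13 on the wild-type E17R2 arrays. Bnc1, which encodes the zinc finger protein basonuclin 1, read 0.40, 0.89 and 0.24 on the homozygous and -1.98, 0.13 and -0.99 on the wild-type E17R2 arrays. Like Upk3b, both were lowest on E17R2WT1. Muc16, a mucin gene with the smallest p of this list in E17R2, was below the olfactory receptor mark on all 11 arrays. The list as a whole gave no one direction: 4 of its 8 measured genes had a difference above 0 (43.9% of all genes did) and 0 passed the test. Below 0 were Gpm6a (-0.43), Wt1 (-0.36), Rspo1 (-0.23) and Msln (-0.03). The summed level of the list (log2) was 5.27 to 5.57 on the homozygous and 5.41 to 5.64 on the wild-type E17R2 arrays. This sum follows the brightest genes, such as Wt1 at 3.52 to 4.53 on the E17R2 arrays. It says little about dimmer genes such as Lrrn4 and Bnc1. The part of mesothelium in the Upk3b values was not tested.

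**Figure D2:**
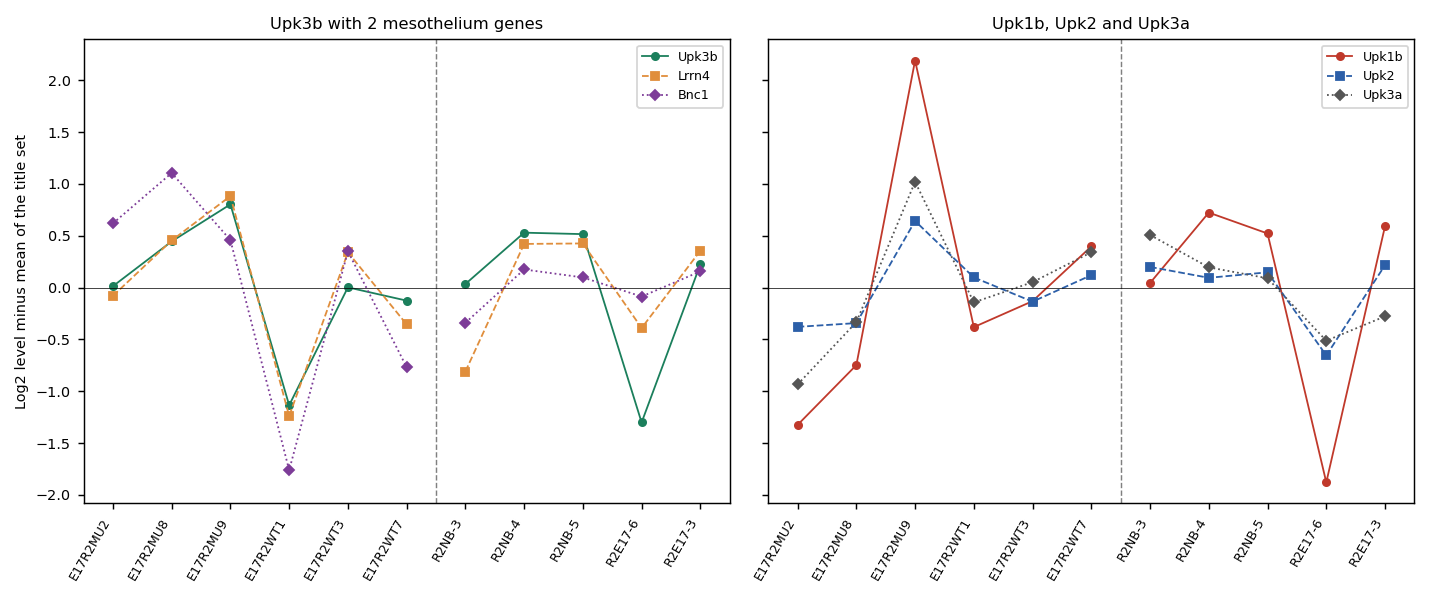
The left panel shows Upk3b with Lrrn4 and Bnc1, and the right panel Upk1b, Upk2 and Upk3a, on every array (x axis). Gpm6a, Wt1, Rspo1 and Msln of the mesothelium list, whose E17R2 differences were below 0, are not shown. The y axis is each gene's log2 level minus its mean over the E17R2 arrays (left of the dashed line) or over the R2NB and R2E17 arrays (right of it); E17R2WT1 is the lowest E17R2 array for the 3 genes on the left, and E17R2MU2 for the 3 on the right.

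The basal cell genes were low on every E17R2 array but 1. Krt15, which encodes a keratin of basal epithelial cells, read 0.06, -0.09 and 4.53 on the homozygous and -0.32, -0.01 and 0.24 on the wild-type E17R2 arrays. E17R2MU9 was 23.5-fold above the mean of the other 5 arrays, the 9th largest such gap of the 18193 genes. Krt5, which encodes the keratin that pairs with keratin 14 in basal cells, read -0.07, -0.33 and 2.45 on the homozygous and 0.01, -0.22 and -0.02 on the wild-type E17R2 arrays. The homozygous and wild-type arrays were close to each other for both keratins once E17R2MU9 was set aside.

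Trp63 read -0.91, -0.54 and 0.88 on the homozygous and -0.88, -0.58 and -0.89 on the wild-type E17R2 arrays. It exceeded the olfactory receptor mark on 7 of the 11 arrays, while the other 9 members exceeded it on all 11, and its other 3 probe sets read between -2.95 and -1.27. The homozygous minus wild-type differences were 1.53 ± 1.15 for Krt15, 0.76 ± 0.68 for Krt5 and 0.59 ± 0.43 for Trp63 (SE; limma adjusted p of 0.868 to 0.872). Without E17R2MU9 they were 0.01 ± 0.17 for Krt15, -0.12 ± 0.12 for Krt5 and 0.06 ± 0.16 for Trp63.

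Psca, which encodes a small lipid-anchored surface protein found in urothelium, read 0.17, 0.28 and 1.76 on the homozygous and 0.13, 0.39 and 0.78 on the wild-type E17R2 arrays. Its difference was 0.30 ± 0.42 (SE; limma adjusted p = 0.919) and -0.21 ± 0.19 without E17R2MU9. Shh was the most even member among wild-type E17R2 arrays. It read 3.27, 3.33 and 4.67 on the homozygous and 3.50, 3.54 and 3.49 on the wild-type E17R2 arrays. E17R2MU2 and E17R2MU8 lay below all 3 wild-type arrays and E17R2MU9 was 2.37-fold above the mean of the other 5. The difference was 0.25 ± 0.35 (SE; limma adjusted p = 0.923), and -0.21 ± 0.08 without E17R2MU9 (unadjusted p = 0.0417, adjusted p = 0.878). A second Shh probe set was dim, at -2.03 to -1.40.

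Without E17R2MU9 the 2 remaining homozygous arrays both lay below all 3 wild-type arrays for 4 of the 10 genes (Upk1b, Upk2, Upk3a and Shh), where 10.1% of all genes did so. They both lay above for 1 gene (Upk3b), against 10.1% of all genes. The same 4 lower genes had an unadjusted p under 0.05, as did 2.75% of all genes in that direction, and 0 genes of 18193 passed adjustment. Upk1b had the 47th lowest difference of all genes, Upk3a the 102nd lowest and Upk3b the 100th highest.

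The superficial uroplakins and the basal cell genes differed in how the arrays were arranged. Relative to the wild-type E17R2 mean, the median of the 5 uroplakins was -0.41 on E17R2MU2, -0.37 on E17R2MU8 and 0.94 on E17R2MU9. The median of the 3 basal cell genes was 0.01 on E17R2MU2, -0.06 on E17R2MU8 and 2.53 on E17R2MU9. Both sets were therefore highest on E17R2MU9, with the larger step in the basal cell genes. On the other 2 homozygous arrays Upk1b, Upk2 and Upk3a lay below all wild-type arrays, whereas Upk1a overlapped with them and Upk3b lay above. The median difference over the 3 homozygous arrays was 0.08 for the uroplakins and 0.76 for the basal cell genes, beside -0.02 for all genes. Without E17R2MU9 it was -0.39 for the uroplakins and 0.01 for the basal cell genes, beside 0.00 for all genes. Without E17R2MU9, 3 of the 5 uroplakins were below 0 (Upk1b, Upk2 and Upk3a) and 2 above 0 (Upk1a and Upk3b).

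Other cell type genes moved with E17R2MU9. All 11 measured smooth muscle genes were highest there among the 6 arrays, with a median of 3.07 above the mean of the other 5 arrays. Actg2, which encodes the gamma actin of visceral smooth muscle, reached 8.14 on E17R2MU9 against 0.76 to 2.54 on the other 5; it was named as one of the genes most like the uroplakins in pattern. The summed smooth muscle level (log2) was 10.9 on E17R2MU9 and 7.96 to 8.34 on the others. In the opposite direction, 0 of 9 collecting duct genes and 0 of 7 kidney defining genes exceeded the mean of the other 5 on E17R2MU9, with medians of -0.78 and -1.07. Epidermis genes exceeded it in 7 of 8, with a median of 0.54, and other basal cell genes in 10 of 13, with a median of 0.54. The olfactory receptor mark was 0.03 on E17R2MU9 and -0.60 to -0.37 on the other 5 E17R2 arrays. The part of these cells or of the dim signal in the E17R2MU9 values was not tested.

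Marker genes of other organs also differed among the remaining arrays. The summed adrenal level (log2) was 5.43, 3.17 and 2.81 on E17R2MU2, E17R2MU8 and E17R2MU9, against 7.16, 6.94 and 3.20 on E17R2WT1, E17R2WT3 and E17R2WT7. The summed gonad and genital duct level was 4.92 on E17R2MU2 and 2.84 to 3.05 on the other 5. Cyp17a1, at 4.29 on E17R2MU2, made up most of the sum there. The summed smooth muscle level (log2) was 7.96 on E17R2MU2 and 8.19 on E17R2MU8, against 8.22, 8.34 and 8.27 on the wild-type E17R2 arrays. On E17R2MU8 Mylk, at 5.32, lay above all 3 wild-type arrays. Without E17R2MU9, 9 of the 11 smooth muscle genes were below 0, against 49.7% of all genes. Their median was -0.24, beside 0.00 for all genes. Actg2 differed by -1.03 ± 0.38, and Myh11 and Cnn1, a smooth muscle myosin and calponin gene named after their values had been seen, by -0.95 ± 0.23 and -0.87 ± 0.25 (SE; limma adjusted p of 0.845 to 0.878). The 7 kidney defining genes were also all below 0 without E17R2MU9, with a median of -0.28. The part of these genes and of the adrenal and gonad genes in the lower uroplakin values was not tested.

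The R2E17 pair, 1 homozygous against 1 wild-type array, has no replicate check. The homozygous array was lower for 9 of the 10 genes, where 26.8% of all genes were lower, and Shh was the exception. It was lower by more than 1 log2 unit for 2 of the 10 (Upk1b and Upk3b), against 0.577% of all genes, and higher by more than 1 unit for 0 of the 10, against 1.86%. Upk1b read 0.33 on the homozygous and 2.80 on the wild-type array, a difference of -2.47, or 5.54-fold lower and the 8th lowest of all genes. Upk3b read 0.44 on the homozygous and 1.97 on the wild-type array, a difference of -1.52 and the 28th lowest, in the direction opposite to E17R2. Of the 8 mesothelium genes 6 were also lower on the homozygous array (median -0.22), among them Lrrn4 by -0.75, Msln by -0.58 and Bnc1 by -0.24. The other 2 were higher, and the part of mesothelium in the pair was not tested. Upk2 read 1.07 on the homozygous and 1.94 on the wild-type array, 1.83-fold lower and the 139th lowest.

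The other members differed less in the pair. The homozygous minus wild-type differences were -0.43 for Upk1a, -0.23 for Upk3a, -0.77 for Krt5, -0.03 for Krt15, -0.57 for Trp63 and -0.66 for Psca. Shh read 3.04 on the homozygous and 2.79 on the wild-type array. The median difference of all genes was 0.10, and 0.01 without subtraction of the array medians. The shares of all genes lower or higher in the pair therefore depend on that subtraction. The wild-type array of this pair is the one with the largest 3' minus 5' differences, given above, and the part of RNA quality in these values was not tested. Of the 11 smooth muscle genes 6 were lower on the homozygous array (median -0.06), among them Actg2 by -1.73, Myh11 by -1.26, Cnn1 by -0.81 and Mylk by -0.51. The other 5 were higher, among them Des by 0.62 and Smtn by 0.49. Tbx18, a ureter mesenchyme factor named after its value had been seen, differed by -0.98. Of the 10 ureter mesenchyme genes, however, 6 were higher on the homozygous array (median 0.03), against 73.2% of all genes. The part of smooth muscle and ureter mesenchyme cells in the pair was not tested. The summed smooth muscle level (log2) was 8.23 on the homozygous and 8.41 on the wild-type array, and the summed adrenal level was 2.60 on the homozygous and 2.54 on the wild-type array.

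**Figure D3:**
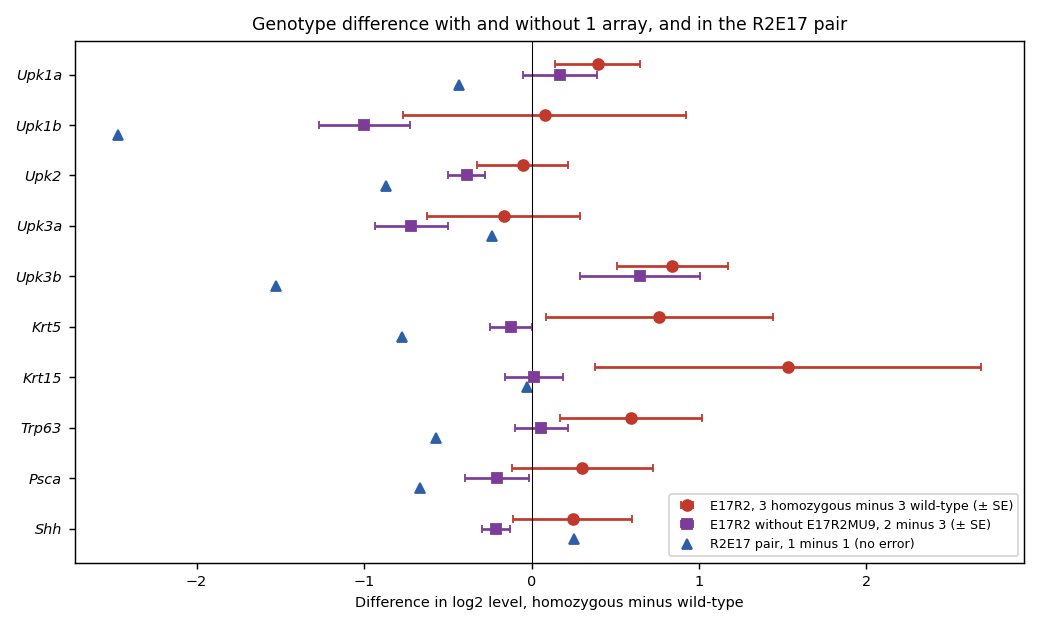
For each gene (y axis) the points give the homozygous minus wild-type difference in log2 level (x axis) over all 6 E17R2 arrays, without E17R2MU9, and in the R2E17 pair; whiskers are 1 SE and the pair has none. Upk1b, Upk2 and Upk3a lie below 0 in the E17R2 comparison without E17R2MU9 and in the pair, whereas Upk3b lies above 0 in E17R2 and below 0 in the pair.

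Upk1b, Upk2 and Upk3a were the 3 of the 10 genes that were below all wild-type arrays on both E17R2MU2 and E17R2MU8 and also lower on the homozygous R2E17 array, which held for 2.61% of all genes. A fit over both title series without E17R2MU9, added after the data had been seen, set 3 homozygous against 4 wild-type arrays with a term for the series. The 3 R2NB arrays were in this fit as a group of their own, so its errors and p values also draw on their spread. It gave -1.43 ± 0.32 for Upk1b, -0.53 ± 0.11 for Upk2, -0.58 ± 0.19 for Upk3a and -0.31 ± 0.14 for Krt5 (SE). In limma these 4 genes had unadjusted p values of 0.00129, 0.00111, 0.0127 and 0.0497 in that order, each with an adjusted p of 0.999, and 0 genes passed. An unadjusted p under 0.05 in this direction was reached by 0.995% of all genes. With E17R2MU9 kept, the same fit gave -0.56 ± 0.71 for Upk1b, -0.26 ± 0.23 for Upk2 and -0.18 ± 0.34 for Upk3a (SE). A fit on the 8 E17R2 and R2E17 arrays alone, E17R2MU9 included, gave -0.56 ± 0.78 for Upk1b.

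The difference between the genotype differences of the title series was tested over all 11 arrays, with the single R2E17 arrays assumed to vary like the replicated groups. For Upk3b it was 2.36 ± 0.62 (SE; unadjusted p = 0.00386, limma adjusted p = 0.387). For Upk1b it was 2.55 ± 1.49 (limma adjusted p = 0.624). None of the 10 genes passed, and 2 of all genes did (0.011%). Without E17R2MU9, an alternative added after the data had been seen, 1 of all genes passed (0.0055%), again none of the 10.

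The R2NB arrays carry the homozygous label and were set against the homozygous R2E17 array. The R2NB and R2E17 arrays were taken as a set because their median intensities were alike. All 3 R2NB arrays read above it for 9 of the 10 genes, where 15% of all genes did so, and below it for 1 (Shh), against 16% of all genes. Upk1b read 2.25, 2.93 and 2.73 on the R2NB arrays and 0.33 on the homozygous R2E17 array, a difference of 2.31 ± 0.29 (SE; limma adjusted p = 0.253). Upk3b read 1.78, 2.27 and 2.26 on the R2NB arrays and 0.44 on the homozygous R2E17 array, a difference of 1.66 ± 0.25 (limma adjusted p = 0.618). Psca read 1.74, 1.30 and 1.14 on the R2NB arrays and 0.01 on the homozygous R2E17 array, a difference of 1.38 ± 0.27, which did not pass either. Over all genes 3 passed (0.0165%), 2 higher (0.011%) and 1 lower (0.0055%), and 0 of them were members.

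The calls in this contrast moved with the settings. With trend and robust settings Upk1b and Upk3b passed (limma adjusted p = 0.00758 and 0.044), and they passed without R2NB-4 or without R2NB-5, while Psca passed without R2NB-5 (limma adjusted p = 0.0434). Each pair of these 5 arrays had identical values in 1646 to 2270 genes, against 37 to 73 for pairs of E17R2 arrays, and the effect of that on the spread was not tested.

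The order of the levels within this set differed between genes. Upk1b averaged 2.64 ± 0.35 (SD, n = 3) on the R2NB arrays, with 0.33 on the homozygous and 2.80 on the wild-type R2E17 array, so the R2NB and wild-type R2E17 levels did not differ beyond the R2NB spread. Upk2 had the same order, with 1.87 ± 0.05 on the R2NB arrays, 1.07 on the homozygous and 1.94 on the wild-type R2E17 array. Upk3a averaged 3.17 ± 0.22 on the R2NB arrays, above 2.39 on the homozygous and 2.62 on the wild-type R2E17 array. Krt5 averaged 0.46 ± 0.08 on the R2NB arrays, with -0.19 on the homozygous and 0.59 on the wild-type R2E17 array. Shh was lowest on the R2NB arrays at 2.48 ± 0.19, with 3.04 on the homozygous and 2.79 on the wild-type R2E17 array.

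Lists of other genes linked to urothelium were followed, and these genes need not be particular to it. On E17R2MU9, 5 of 10 umbrella and intermediate cell genes exceeded the mean of the other 5 arrays (median 0.05). Of 14 urothelial transcription factors 9 did so (median 0.18). Mal, of the first list, and Ovol1, of the second, differed from that mean by -0.54 and -0.75. The part of other kidney cells in these lists was not tested. Of 10 measured umbrella and intermediate cell genes, 0 passed the test in either direction. Without E17R2MU9, 9 were below 0 (median -0.14, all genes 0.00), against 49.7% of all genes. In the R2E17 pair 8 were lower (median -0.30, all genes 0.10), against 26.8% of all genes. Krt20, which encodes the keratin of umbrella cells, read -1.01, -0.42 and -0.55 on the homozygous and -0.39, -0.16 and 0.42 on the wild-type E17R2 arrays, a difference of -0.61 ± 0.24 (unadjusted p = 0.0380, limma adjusted p = 0.867). Unlike the 10 members, Krt20 was not highest on E17R2MU9. It was dim on 2 of the 11 arrays, and read -0.66 on the homozygous against 0.10 on the wild-type R2E17 array.

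Of 14 urothelial transcription factors 0 passed, with 6 above 0 in E17R2 and 4 below 0 in the R2E17 pair. These counts were near the shares of all genes, 43.9% and 26.8%. Elf3, an epithelial ETS factor, differed by -0.27 ± 0.10 (limma adjusted p = 0.867). Of 13 other basal cell genes 0 passed, 7 were above 0 in E17R2, and 8 were below 0 without E17R2MU9. The shares of all genes were 43.9% and 49.7%. Krt6a, a keratin gene, read 0.42, 0.32 and 0.70 on the homozygous and 0.01, -0.13 and 0.18 on the wild-type E17R2 arrays. Aqp3, a water channel gene, read 3.17, 3.40 and 3.20 on the homozygous and 3.48, 3.62 and 3.50 on the wild-type E17R2 arrays. Itga6, which encodes the integrin alpha 6 of basal adhesion, read 5.36, 5.33 and 4.95 on the homozygous and 5.44, 5.67 and 5.42 on the wild-type E17R2 arrays. For each of these 3 genes the homozygous and wild-type values did not overlap, but the directions differed. The differences were 0.46 ± 0.13 for Krt6a, -0.28 ± 0.10 for Aqp3 and -0.30 ± 0.14 for Itga6 (SE, limma adjusted p = 0.867 each). Over all genes, the homozygous values lay all above in 4.85% and all below in 7.14%. These 3 genes were named for the smallest p of their list, which favours groups that do not overlap. Krt14, the partner of keratin 5 and also on the epidermis list, read -0.71, -0.74 and 0.40 on the homozygous and -0.87, -1.10 and -0.68 on the wild-type E17R2 arrays. Krt6a and Krt14 were highest on E17R2MU9, whereas Aqp3 and Itga6 lay below the mean of the other 5 arrays there. Of 11 general ureteric epithelium genes 0 passed and 4 were above 0 (median -0.13), against 43.9% of all genes. E17R2MU9 was the highest of the 6 arrays for 4 of them, against 17.8% of all genes.

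The hedgehog pathway list mixes genes that report signals from ligands such as Sonic hedgehog with genes that carry them. Its counts therefore do not measure a response. Of 10 measured members 9 were above 0 in E17R2 and 8 without E17R2MU9 (medians 0.18 and 0.12, 0 passed). Ptch1, Gli1 and Hhip, which report the signal, differed by 0.13, 0.22 and 0.29 in E17R2. Without E17R2MU9 they differed by 0.13, 0.31 and -0.14, and in the R2E17 pair by -0.03, -0.49 and -0.71. Gli2, a transcription factor of this pathway, read 3.88, 3.97 and 4.27 on the homozygous and 3.65, 3.67 and 3.61 on the wild-type E17R2 arrays, a difference of 0.40 ± 0.12 (limma adjusted p = 0.867). Cdon, a co-receptor, differed by 0.51 ± 0.15 (limma adjusted p = 0.867). In the R2E17 pair 5 of the 10 were above 0. Over all genes the share above 0 was 43.9% in E17R2, 50.3% without E17R2MU9 and 73.2% in the R2E17 pair. Of 10 ureter mesenchyme genes 8 were above 0 in E17R2 and 0 passed. Smoc2, which encodes a matricellular protein, read 4.38, 4.14 and 4.14 on the homozygous and 3.63, 3.80 and 3.81 on the wild-type E17R2 arrays, a difference of 0.48 ± 0.11 (limma adjusted p = 0.867). Its groups did not overlap, which held in this direction for 4.85% of all genes, and it was named for the smallest p of its list. The Smoc2 difference was 0.52 ± 0.11 without E17R2MU9 and 0.02 in the R2E17 pair. Tshz3, a factor for ureteral smooth muscle, read 2.49, 2.97 and 3.29 on the homozygous and 2.39, 2.56 and 2.23 on the wild-type E17R2 arrays (limma adjusted p = 0.867).

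Across the 11 arrays, with each gene's mean within each set of like median intensity subtracted, the members varied together to different degrees. These correlations describe arrays that share groups and sets, and carry no test. Upk1b and Upk2 had a Pearson r of 0.95, and 0.92 over the 10 arrays without E17R2MU9. Upk3a and Psca had 0.89, and 0.81 without it. Krt5 and Krt15 had 0.96, and 0.72 without it. Upk3b and Upk3a had 0.44, and 0.26 without it. Shh and Krt15 had 0.83, and 0.21 without it.

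The gene whose pattern was most like the mean of Upk1a, Upk1b, Upk2 and Upk3a was Sprr1a, a cornified envelope protein gene, with r = 0.98 over 11 arrays and 0.98 without E17R2MU9. Sprr1a read 2.13, 2.55 and 4.26 on the homozygous and 2.81, 2.98 and 3.35 on the wild-type E17R2 arrays, and 2.87 on the homozygous against 4.19 on the wild-type R2E17 array. Next came Tmbim1 (0.93), Grn (0.92), Actg2 (0.91), Sat2 (0.91) and Fxyd3 (0.91). Without E17R2MU9 their r values were 0.87, 0.84, 0.89, 0.88 and 0.82 in that order. For the mean of Krt5, Krt15 and Trp63 the most alike were Tpm2 (0.99), Csrp1 (0.99), Il6st (0.99), Mylk (0.99), Pdlim7 (0.99) and Tgfb1i1 (0.99). Without E17R2MU9 their r values ranged from 0.87 (Tgfb1i1) to 0.95 (Tpm2). Tpm2 and Mylk encode the muscle proteins beta tropomyosin and myosin light chain kinase. Tpm2 read 5.55, 5.51 and 8.17 on the homozygous and 5.72, 5.65 and 5.65 on the wild-type E17R2 arrays, and its r without E17R2MU9 was 0.95.

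**Figure D4:**
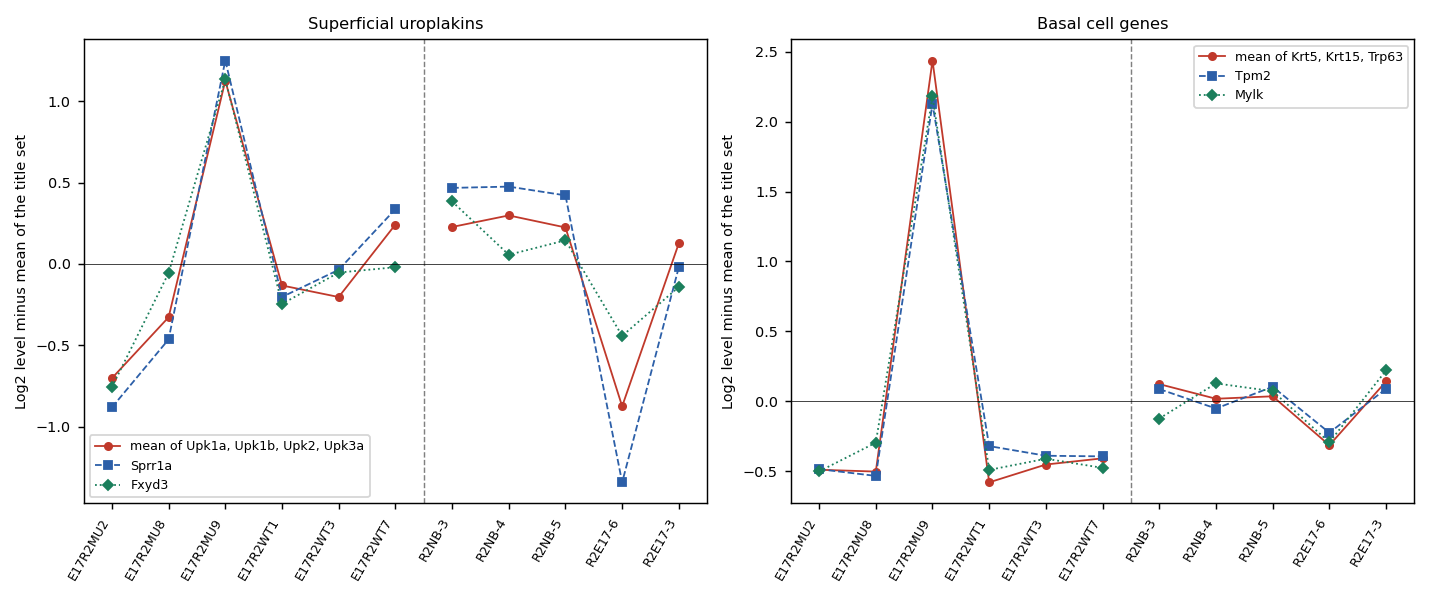
The left panel shows the mean of Upk1a, Upk1b, Upk2 and Upk3a with Sprr1a and Fxyd3, and the right panel the mean of Krt5, Krt15 and Trp63 with Tpm2 and Mylk, on every array (x axis). The y axis is the log2 level minus its mean over the E17R2 arrays (left of the dashed line) or over the R2NB and R2E17 arrays (right of it). E17R2MU9 is the highest array in both panels, E17R2MU2 and R2E17-6 are low on the left, and the right panel is nearly flat apart from E17R2MU9.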

How the data were processed

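RNA of E17 mouse kidneys was read on 11 Affymetrix 3' arrays. The authors deposited 1 table of RMA intensity, as the submitters' processing notes name it, with no version stated. The values are on a linear scale, so log2 was taken with no pseudocount, and the median log2 of the array's non-control probe sets was subtracted. Of 45101 probe sets, 64 were controls, 34945 had 1 gene symbol in the platform annotation, 932 had several and 9160 are unnamed here. RefSeq (GRCm38.p6) gave current names for 34741. Each gene was read by its brightest probe set on average, which gave 18193 genes. The number of arrays limits the precision.

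Tests used limma 3.58.1 under R 4.3.3 (2-sided, no trend, not robust), with Benjamini-Hochberg adjustment over all genes at a threshold of 0.05. The E17R2 fit used only the 6 E17R2 arrays. The R2NB fit used the 5 R2NB and R2E17 arrays, with the single R2E17 arrays assumed to vary like the R2NB arrays. On simulated data of 18193 genes the E17R2 fit recovered 73.5% of genes changed by 1 log2 unit and 92.5% of those changed by 2, and the R2NB fit 0% and 59.5%. The simulation changed 200 genes and drew normal noise separately for each value, so it held no array that stood out as E17R2MU9 did. Its shares therefore do not tell which changes the real fit would find. There Robo2 differed by -1.09 ± 0.18 (SE) and did not pass (limma adjusted p = 0.867). The labels do not say that arrays came from separate animals, so the p-values cover the spread among these samples alone, and that spread may be technical.

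The members and gene lists were chosen with earlier results of these data known. The text names all members and Robo2, of each list up to 3 genes with the smallest p in E17R2, and the 6 genes most alike each profile in Pearson correlation among genes above the median level. Lrrn4, Wt1, Rspo1, Msln, Myh11, Cnn1, Tbx18, Ptch1, Gli1 and Hhip fall outside this rule and were named after their values were seen. Krt14 is named through the epidermis list. Alternatives left out single arrays, added a title series term, or changed the normalization, pseudocount, probe set rule, level filter and eBayes settings.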

Additional observations from a re-analysis of the deposited data

Results flagged for a closer look

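The Upk3b genotype difference pointed in opposite directions in the title series. It was singled out because the 3 homozygous E17R2 arrays all lay above the 3 wild-type E17R2 arrays, whereas the homozygous R2E17 array lay below its wild-type partner. The E17R2 difference minus the R2E17 difference was 2.36 ± 0.62 on the log2 scale, and did not pass (limma adjusted p = 0.387). Without E17R2MU9 it was 2.17 ± 0.61 (limma adjusted p = 0.410). The R2E17 groups hold 1 array each.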

How the results depend on the processing

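No paired analysis was possible because the groups compared share fewer than 2 replicate numbers. The count of genes past the threshold in E17R2 was 0 under every alternative run except without E17R2WT7, where it was 3; leaving out 1 array at a time gave 0 to 3. The sign of a member's E17R2 difference turned in several settings. With all 11 arrays and a title series term, and with the 8 arrays and that term, Upk1b was -0.56. With quantile normalization Upk2 was 0.0054. With the title series term and E17R2MU9 left out, Upk1a was -0.0089, Upk1b -1.43, Krt5 -0.31, Trp63 -0.13, Psca -0.34 and Shh -0.074. Leaving out 1 array at a time gave -0.998 to 0.76 for Upk1b, -0.39 to 0.12 for Upk2, -0.72 to 0.26 for Upk3a, -0.12 to 1.27 for Krt5, -0.21 to 0.59 for Psca and -0.21 to 0.49 for Shh. Upk3b kept its sign in all 16 alternatives, from 0.0097 to 1.05. The 9 members lower in the R2E17 pair stayed lower under all 4 alternatives. For Trp63 this rested on the main probe set, and the mean of all its probe sets gave -0.015. Its other 3 probe sets, all dim, were higher on the homozygous array, by 0.09, 0.34 and 0.07. The R2NB count was 3, and 0 to 141 with 1 R2NB array left out, 10 with trend and robust settings, 0 with quantile normalization and 0 with no median subtraction, an alternative added after seeing the data. The count for the difference between title series was 2, and 1 without E17R2MU9, where Upk3a turned to -0.48. The superficial minus basal median was -0.68, and -0.40 without E17R2MU9. The cause of these moves was not tested. Dim signal limits Trp63, and 1 array a group limits the R2E17 pair.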
